A study of Homo sapiens with 6 samples.

Results

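The genes described here are the 10 that encode the CIP/KIP and INK4 inhibitors of cyclin-dependent kinases (CDKs) and the D-type cyclins: CDKN1A, CDKN1B and CDKN1C, CDKN2A to CDKN2D, and CCND1 to CCND3. They were chosen by name, with earlier results of these data known. All 10 were found among the 60708 gene identifiers of the count files. The counts come from U2OS cells, an established human osteosarcoma line, kept for 4 days either in the solvent DMSO (3 libraries) or in 25 µM PDD00017273 (3 libraries, called PARGi). PDD00017273 blocks PARG, a glycohydrolase that removes poly(ADP-ribose) chains from proteins. The cells are described as wild type, the replicates as biological, and the measurement is strand-specific sequencing of total RNA. A single line, dose and time were measured.

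D-type cyclins bind the kinases CDK4 and CDK6 and start the phosphorylation of the retinoblastoma protein RB, which frees E2F factors and lets a cell pass from G1 into S phase. INK4 proteins bind CDK4 and CDK6 and keep the D cyclins away. CIP/KIP proteins bind whole cyclin-CDK complexes, foremost those of CDK2, and can also help D cyclins and CDK4 assemble. CDKN1A is known as a gene induced by DNA damage, and CDKN2A is known to be silent in U2OS.

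Of the 10 genes, 9 had enough counts for a test, and 8 of these differed between inhibitor and solvent. This is to be read against a background of 24.3% of the 20409 genes tested (edgeR quasi-likelihood test, Benjamini-Hochberg adjusted p under 0.05). CDKN1A, CCND3 and CCND1 rose, where 13.2% of all genes tested rose. CDKN1B, CDKN1C, CDKN2C, CDKN2D and CCND2 fell, where 11.0% fell. CDKN2B did not pass the threshold, and CDKN2A was almost without counts. Within 2 of the families, members thus moved in opposite directions. CDKN1B and CDKN1C fell while CDKN1A rose, and CCND2 fell while the other D cyclins rose. Of the 3 INK4 genes tested, 2 fell and 0 rose, so that 4 of the 6 tested inhibitors fell. In all 9 tested genes the PARGi libraries did not overlap the DMSO libraries, which was the case for 38.0% of all genes tested. In bulk RNA, a change in the number of cells that hold a transcript and a change in the amount per cell cannot be told apart.

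Some starts of these genes are shown for 2 contrasts in the counts. CDKN1A and CDKN1B moved apart, and of the neighbours CDKN2B and CDKN2A, only CDKN2B was detected at more than a few counts. Each sequence is the 250 bases before the annotated start, 5′ to 3′ on the strand of the gene, from RefSeq on GRCh38.p14, and capitals mark GC boxes (GGGCGG on either strand), the element bound by SP1-type factors. The CDKN1A window is chr6:36678464-36678713 (plus strand), that of CDKN1B is chr12:12717118-12717367 (plus strand), that of CDKN2B is chr9:22009306-22009555 (minus strand), and that of CDKN2A, at the downstream of its 2 annotated starts, is chr9:21974858-21975107 (minus strand).
CDKN1A: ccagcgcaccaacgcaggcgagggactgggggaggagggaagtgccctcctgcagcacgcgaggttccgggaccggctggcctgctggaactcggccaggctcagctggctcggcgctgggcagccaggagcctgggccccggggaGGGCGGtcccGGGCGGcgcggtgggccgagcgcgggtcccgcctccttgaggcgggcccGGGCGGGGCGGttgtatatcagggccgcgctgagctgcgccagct
CDKN1B: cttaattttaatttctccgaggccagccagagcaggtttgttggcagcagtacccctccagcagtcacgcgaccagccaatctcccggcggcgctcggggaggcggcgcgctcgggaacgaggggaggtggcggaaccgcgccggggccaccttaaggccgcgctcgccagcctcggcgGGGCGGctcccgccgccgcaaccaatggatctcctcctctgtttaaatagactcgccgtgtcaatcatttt
CDKN2B: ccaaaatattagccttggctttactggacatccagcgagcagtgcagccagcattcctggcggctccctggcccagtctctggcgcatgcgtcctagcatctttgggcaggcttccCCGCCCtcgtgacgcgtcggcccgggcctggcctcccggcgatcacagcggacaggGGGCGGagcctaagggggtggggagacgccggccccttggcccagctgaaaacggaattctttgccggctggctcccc
CDKN2A: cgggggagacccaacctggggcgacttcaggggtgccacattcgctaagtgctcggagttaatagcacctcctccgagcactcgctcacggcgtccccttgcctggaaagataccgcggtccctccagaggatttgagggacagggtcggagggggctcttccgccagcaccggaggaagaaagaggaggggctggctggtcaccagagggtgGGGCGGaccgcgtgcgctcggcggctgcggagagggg
The CDKN1A window held 4 GC boxes, 2 of which overlap, the CDKN1B window held 1, the CDKN2B window 2 and the CDKN2A window 1. Of 35116 RefSeq windows of this length, 42.6% held at least 1. Among windows not shown, 1 of CDKN2C, which fell, and 1 of CCND3, which rose, held 5 GC boxes each. The window at the upstream CDKN2A start held 0. A link between box number and the direction of change was not tested. The CDKN1B window also held 2 CCAAT boxes (CCAAT on either strand, found in 32.0% of windows), and the other 3 windows held none. The windows of CDKN1A and CDKN1B held 27 CpG dinucleotides each, that of CDKN2B 18 and that of CDKN2A 20, where the median window held 11. These matches describe the letters of the windows, and no binding or methylation was measured.

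Among the CIP/KIP genes, CDKN1A rose and both of its relatives fell. CDKN1A encodes p21, the inhibitor that holds damaged cells in G1 (chromosome 6, 36676460 to 36687339 on the plus strand in GENCODE 29, GRCh38). Its level was 114, 116 and 119 CPM (counts scaled to library size, with trimmed-mean factors) in DMSO replicates 1, 2 and 3, and 188, 199 and 197 CPM in PARGi replicates 1, 2 and 3. Every treated library lay well above every control library. The log2 fold change was 0.74 (SE 0.027, 95% confidence interval 0.68 to 0.80, edgeR adjusted p = 3.72e-15), a rise of 67.1%. Of all genes tested, 2.92% had a larger absolute change.

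CDKN1B encodes p27, the inhibitor that accumulates in quiescent cells and is removed by the SKP2 ubiquitin ligase when cells enter the cycle (chromosome 12, 12715058 to 12722371, plus strand). Its level was 129, 132 and 130 CPM in the DMSO replicates and 104, 99.3 and 98.8 CPM in the PARGi replicates. The treated libraries were all lower, with a gap between the groups far wider than the spread within them. The log2 fold change was -0.37 (SE 0.027, edgeR adjusted p = 2.97e-10), a change of -22.8% with a 95% interval from -25.8% to -19.8%.

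CDKN1C encodes p57, an imprinted gene best known from embryonic growth control (chromosome 11, 2883213 to 2885773, minus strand). The DMSO replicates gave 22.2, 21.9 and 21.9 CPM and the PARGi replicates 16.7, 14.1 and 14.8 CPM. The 3 control libraries were nearly equal, while the treated ones varied more, with a coefficient of variation of 8.81% against 0.81%. The log2 fold change was -0.54 (SE 0.051, edgeR adjusted p = 2.53e-08), the largest fall among the members.

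**Figure D1:**
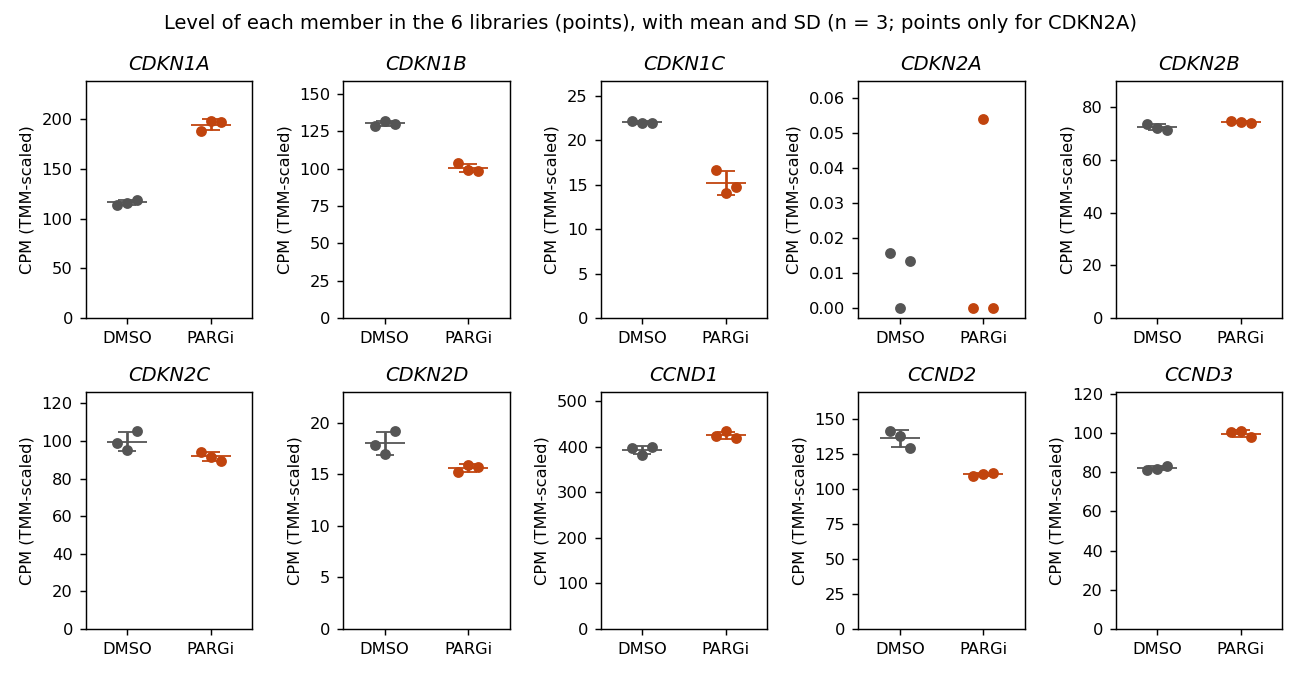
Level of each of the 10 genes in CPM after trimmed-mean scaling (vertical axis, its scale differs between panels) in the 3 DMSO and 3 PARGi libraries. Points are libraries, and bars give the mean and SD except for CDKN2A, whose libraries hold 0 to 4 counts. CDKN1A, CCND1 and CCND3 lie higher in PARGi, and CDKN1B, CDKN1C, CDKN2C, CDKN2D and CCND2 lie lower.

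The INK4 genes moved less. CDKN2C encodes p18 (chromosome 1, 50960745 to 50974633, plus strand) and ran from 95 to 105 CPM in DMSO and from 89.5 to 94.4 CPM in PARGi, so that the groups were separated by less than 1 CPM. Its log2 fold change was -0.12 (SE 0.033, edgeR adjusted p = 0.00853), and without PARGi replicate 3 it no longer passed (-0.10, adjusted p = 0.0767). CDKN2D encodes p19 (chromosome 19, 10566462 to 10569059, minus strand) and ran from 17.0 to 19.2 CPM in DMSO and from 15.2 to 15.9 CPM in PARGi. This was a log2 fold change of -0.21 (SE 0.049, edgeR adjusted p = 0.00322). The INK4 gene with no call, CDKN2B (p15, chromosome 9, 22002903 to 22009363, minus strand), averaged 72.3 ± 1.16 CPM with the solvent and 74.4 ± 0.467 CPM with the inhibitor (SD, n = 3 each). Its libraries were separated as well, but the log2 fold change of 0.040 (SE 0.027) had an edgeR adjusted p of 0.315, and its 95% interval ran from -1.10% to 6.89%.

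CDKN2A encodes p16 and, from its upstream start, the unrelated protein ARF (chromosome 9, 21967753 to 21995301, minus strand). Its counts were 1, 0 and 1 in the DMSO replicates and 0, 4 and 0 in the PARGi replicates, out of 60286931 to 80605145 counts per library. A count of 0 allows up to 3 counts, which is 0.0372 to 0.0498 CPM at these depths, and this covers counting error only. No fold change was therefore computed. The near absence of CDKN2A stood next to ample counts for the genes beside it: CDKN2B held 4488 to 5943 counts per library, and MTAP, a purine salvage enzyme 30102 bases from CDKN2A, rose from 56.7 ± 0.584 to 61.5 ± 1.147 CPM (n = 3 each, log2 fold change 0.12, edgeR adjusted p = 0.00413). DMRTA1, the next protein-coding gene beyond CDKN2B, did not pass (-0.060, edgeR adjusted p = 0.404). The antisense gene CDKN2B-AS1, which runs through both INK4 genes, had 16, 6 and 9 counts in DMSO and 5, 0 and 8 in PARGi, too few for a test. CDKN2A and CDKN2B resemble each other in part of their coding sequence, and how reads matching both were counted is not given in the sources used here.

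The D cyclins split by member. CCND1, the cyclin most often raised in tumours (chromosome 11, 69641087 to 69654474, plus strand), was by far the most abundant of the 3. It was at 397, 381 and 398 CPM in the DMSO replicates and 423, 433 and 418 CPM in the PARGi replicates. The groups did not overlap, but the rise was small, at a log2 fold change of 0.12 (SE 0.025, edgeR adjusted p = 0.00137) or 8.36% (95% interval 4.52% to 12.3%). CCND1 shares 497 exonic bases with LTO1 on the opposite strand, and LTO1 did not pass the threshold (-0.041, edgeR adjusted p = 0.566).

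CCND3, the D cyclin prominent in lymphoid cells (chromosome 6, 41934933 to 42050357, minus strand), gave 81.2, 81.9 and 83.3 CPM in the control replicates and 101, 101 and 97.9 CPM in the treated ones. The groups lay clearly apart. The log2 fold change was 0.28 (SE 0.027, edgeR adjusted p = 2.88e-08), a rise of 21.5%. CCND2 (chromosome 12, 4273772 to 4305350, plus strand) went the other way. Control replicates gave 141, 138 and 129 CPM and treated ones 109, 111 and 111 CPM, with every treated library below every control library. The log2 fold change of CCND2 was -0.30 (SE 0.030, edgeR adjusted p = 5.12e-08), a change of -18.9%. GENCODE 29 lists a further gene on the CCND2 strand that shares 989 of its exonic bases, and that gene held 0 counts. The CCND2 and CCND3 pseudogenes in the files held 0 to 2 counts over all libraries. Whether reads matching both a parent and its pseudogene were lost from the counts was not tested.

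**Figure D2:**
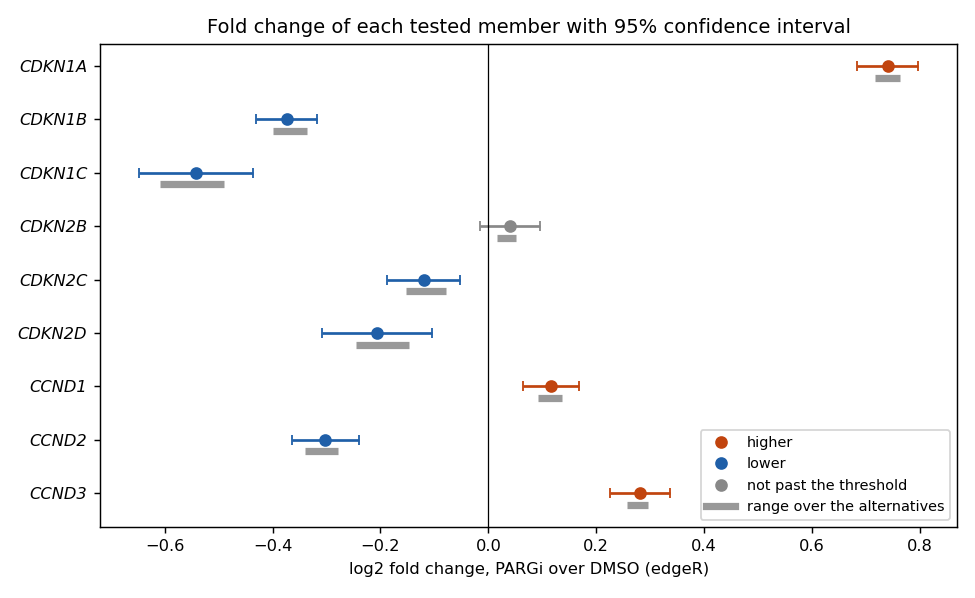
Log2 fold change of PARGi over DMSO (horizontal axis) for the 9 tested genes. Points and whiskers are edgeR estimates with 95% confidence intervals, coloured by call, and the grey bar under each is the range over the 17 alternative analyses. CDKN1A stands at 0.74 and CDKN1C at -0.54, and no grey bar crosses 0.

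Levels can be set side by side only per length, so each CPM was divided by the gene's annotated exonic length (all exons merged, in kilobases). On this scale the order in DMSO was CCND1 at 81.2, CDKN1B at 46.4, CDKN1A at 38.2, CDKN2C at 30.0, CCND2 at 19.0, CDKN2B at 17.8, CCND3 at 14.2, CDKN2D at 11.98 and CDKN1C at 8.89 CPM per kb. The ranges of neighbours over the DMSO libraries did not overlap, except those of CCND2 and CDKN2B. Within each DMSO library CCND2 still lay above CDKN2B. In PARGi, CDKN1A stood at 63.8 CPM per kb and passed CDKN1B, now at 35.8, and CCND2 dropped from rank 5 to rank 7, behind CDKN2B and CCND3. No neighbouring ranges overlapped in PARGi. The exonic length is that of the annotation, not of the transcripts used in these cells, so the order of genes close to each other is less certain than that of changes within a gene.

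The make-up of the CIP/KIP family changed more than its sum. CDKN1A held 40.9% ± 0.539 of the length-scaled level of the 3 CIP/KIP genes in DMSO and 60.3% ± 1.53 with the inhibitor (SD, n = 3 each). CDKN1B held 49.6% ± 0.476 and then 33.9% ± 1.01, and CDKN1C 9.51% ± 0.188 and then 5.80% ± 0.529. The leading CIP/KIP transcript was therefore CDKN1B in every control library and CDKN1A in every treated one. Their sum was 93.5 ± 1.08 CPM per kb in DMSO and 105.7 ± 0.359 in PARGi, a difference of 13.1%, since the falls offset much of the rise of CDKN1A. The sum of the D cyclins was 114.4 ± 1.81 and 120.6 ± 1.84 CPM per kb, with CCND1 at 71.0% ± 0.778 and 72.9% ± 0.218 of it. On this length-scaled level CCND2 and CCND3 exchanged places. CCND2 held 16.7% ± 0.809 in DMSO and 12.8% ± 0.243 in PARGi, and CCND3 12.4% ± 0.260 and 14.3% ± 0.148. In CPM not divided by length they did not, as CCND2 (109 to 111 CPM) stayed above CCND3 (97.9 to 101 CPM) in PARGi. The INK4 sum was 59.8 ± 2.20 and 56.4 ± 0.694 CPM per kb, and CDKN2C made up 50.2% ± 0.791 and 49.1% ± 0.736 of it, with overlapping groups.

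**Figure D3:**
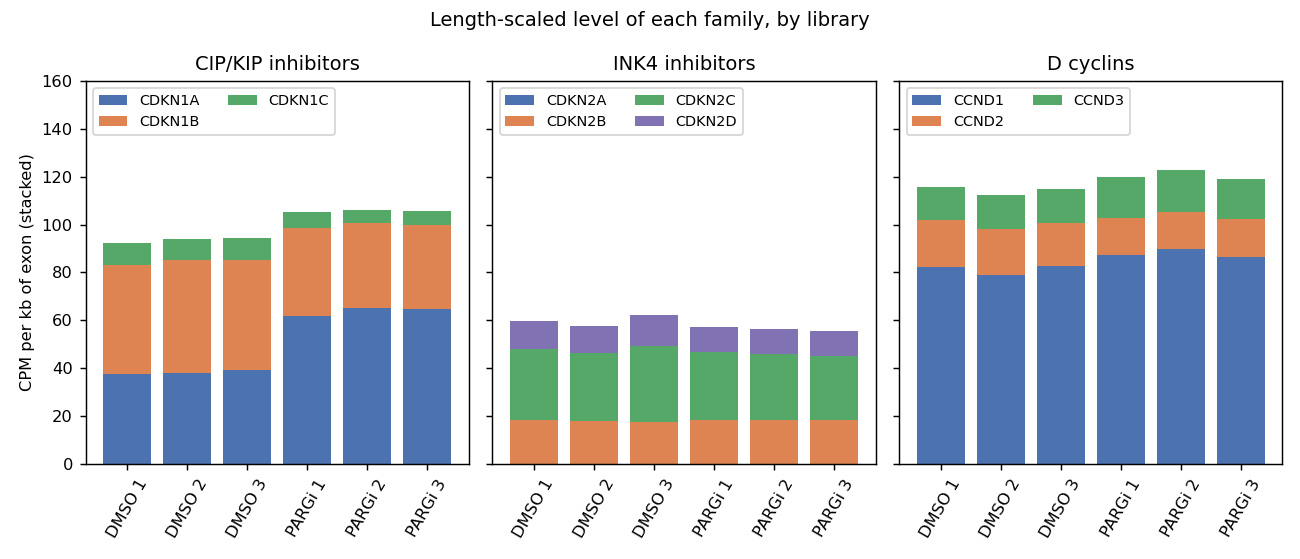
Length-scaled level (CPM per kb of exon, vertical axis) of the genes of each family, stacked, in each of the 6 libraries. CDKN1A takes about 41% of the CIP/KIP bar in DMSO and 60% in PARGi, while the INK4 and D cyclin bars change less.

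Ratios within a library do not depend on the scaling between libraries, and 3 of them were compared. The log2 ratio of CDKN1A to CDKN1B per kb was -0.29, -0.30 and -0.24 in the DMSO replicates and 0.74, 0.88 and 0.88 in the PARGi replicates. The sign turned in every library, and the means differed by 1.11. The log2 ratio of CCND1 to CCND3 was 2.52 ± 0.035 in DMSO and 2.35 ± 0.016 in PARGi, a difference of -0.17. The log2 ratio of CDKN2C to CDKN2D was 1.33 ± 0.014 and 1.41 ± 0.067, a difference of 0.086 that was 0.048 without PARGi replicate 1. With an offset for GC content and length, CDKN2C and CDKN2D lay closer together in log2 fold change (-0.11 and -0.15) than in the main fit (-0.12 and -0.21). Each of the 3 ratios had separated groups and an exact two-sided permutation p of 0.1, the smallest that 3 against 3 libraries (n = 3 each) can give.

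Partners and targets of these proteins were read from 4 lists. The share over all genes depends on which genes are tested: among protein-coding genes alone, 30.2% of 14504 passed. In that fit 8 genes of the cyclin-CDK list, 2 of the E2F list, 8 of the turnover list and 11 of the regulator list passed. The values that follow are those of the main fit unless stated. Of 21 listed cyclin-CDK and pocket protein genes, 20 were tested, 5 rose and 2 fell (35.0% passed, against 24.3% of all genes), with a median log2 fold change of 0.049 where all genes tested had -0.0070. CCNE1, the cyclin that activates CDK2 after RB is phosphorylated, rose from 78.2 ± 0.765 to 93.4 ± 0.470 CPM (n = 3 each, log2 fold change 0.26, edgeR adjusted p = 8.45e-08). CDK2, the kinase that CIP/KIP proteins bind foremost, rose from 124.1 ± 2.40 to 142.8 ± 1.11 CPM (0.20), and CDK1, the mitotic kinase, rose by 0.19 on the log2 scale. Of the D cyclin partners, CDK6 fell from 268.3 ± 4.22 to 251.8 ± 4.78 CPM (-0.091, edgeR adjusted p = 0.00861), a call lost without PARGi replicate 1 (-0.077, adjusted p = 0.0645). CDK4 did not pass (-0.034, edgeR adjusted p = 0.380), nor did RB1, which encodes RB (0.076, edgeR adjusted p = 0.0596). The phosphatase gene CDC25A (0.18) rose. Of the kinase genes whose products inhibit CDK1, PKMYT1 rose (0.14) and WEE1 fell (-0.13, edgeR adjusted p = 0.00289). WEE1 is named outside the selection rule. With an offset for GC content and length, 11 genes of this list passed in place of 7, where the share over all genes was 28.1% in place of 24.3%.

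Among 10 E2F and DP genes, 2 rose and 1 fell, at a median of -0.017. The share that passed, 30.0%, was near the 24.3% of all genes tested. TFDP1, the DNA-binding partner of E2F proteins, rose from 186.3 ± 1.36 to 212.8 ± 2.15 CPM (n = 3 each, log2 fold change 0.19, edgeR adjusted p = 2.07e-06). E2F2 fell (-0.21, edgeR adjusted p = 0.000151), and E2F3 rose slightly (0.092, edgeR adjusted p = 0.0339), a call that 7 of 17 alternatives did not keep. E2F1 had a log2 fold change of 0.011 with an edgeR adjusted p of 0.825. E2F1 is named outside the selection rule, with its values already known.

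Of 18 genes listed for turnover of the inhibitors and D cyclins, 8 rose and 2 fell, at a median of 0.019. The share that passed was 55.6%, against 24.3% of all genes tested. The 5 with the smallest p, FBXW7, CUL1, CKS1B, UBAC1 and FBXO31, rose, between 0.12 and 0.19 on the log2 scale. FBXW7 marks cyclin E, which is not among the members, for destruction, and CUL1 is the scaffold of its ligase. CKS1B is the cofactor of SKP2 in removing p27, UBAC1 is a subunit of another p27 ligase, and FBXO31 targets cyclin D1. FBXW7 went from 34.8 ± 1.51 to 39.8 ± 0.813 CPM (n = 3 each, edgeR adjusted p = 0.000356). FBXO4, which like FBXO31 is a ligase subunit for cyclin D1, fell (-0.27, edgeR adjusted p = 0.0187), at a low level of 6.002 and 4.97 CPM on average, and DDB1, an adaptor of CUL4 ligases, fell as well (-0.086, edgeR adjusted p = 0.0106). FBXO4 and DDB1 are named outside the selection rule because they were the only members of this list that fell. The count of 10 passing genes was 6 without PARGi replicate 1 and 6 without PARGi replicate 3, fits in which the share over all genes was 19.1% and 17.6%.

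Of 29 transcriptional regulators of the members, 5 rose and 6 fell, at a median of -0.011. The share that passed was 37.9%, against 24.3% of all genes tested. MDM2, a ubiquitin ligase, rose from 63.4 ± 0.928 to 79.2 ± 1.55 CPM (n = 3 each, log2 fold change 0.32, edgeR adjusted p = 6.81e-09). KLF6, a zinc finger factor that can activate CDKN1A, rose by 0.31, FOSL1, an AP-1 subunit, by 0.46, and ETS1 by 0.19 on the log2 scale. SP1 fell from 140.8 ± 1.36 to 129.0 ± 1.65 CPM (-0.13, edgeR adjusted p = 0.000570). Of the FOXO factors in the list, known to activate CDKN1B, FOXO3 (-0.15) and FOXO4 (-0.26) fell (edgeR adjusted p = 0.000919 and 0.00274), and FOXO1 did not pass (-0.097, edgeR adjusted p = 0.3003). The other genes of this list that passed were JUN, which rose (0.10), and CBX7 (-0.17), BMI1 (-0.079) and SP3 (-0.066), which fell. These and the FOXO genes are named outside the selection rule, with their values already known. Whether the changes of these regulators bear on those of the members was not tested.

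**Figure D4:**
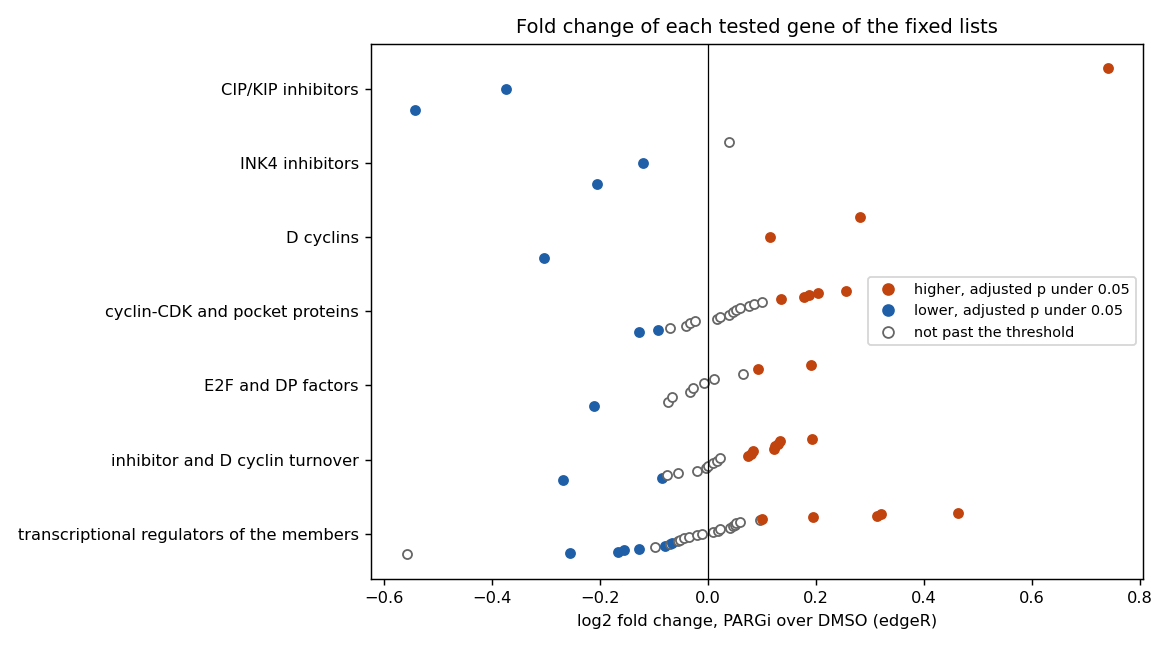
Log2 fold change of PARGi over DMSO (horizontal axis) for every tested gene of the 3 member families and the 4 pathway lists, 1 point per gene, filled where the edgeR adjusted p is under 0.05. The points of the pathway lists crowd around 0, and CDKN1A lies farthest to the right at 0.74.

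The genes beside the members did not all move with them. At the CDKN1A locus, the upstream neighbour SRSF3 did not pass (-0.026, edgeR adjusted p = 0.477), and neither did DINOL, a non-coding RNA that overlaps CDKN1A on the opposite strand (0.759 ± 0.109 and 0.995 ± 0.166 CPM, n = 3 each, log2 fold change 0.40, edgeR adjusted p = 0.139). RAB44, which starts 10471 bases downstream of CDKN1A on the same strand, had 7, 8 and 7 counts in DMSO and 27, 21 and 41 in PARGi (log2 fold change 1.91, SE 0.36, edgeR adjusted p = 0.000364). The treated libraries all lay higher, at a level far below that of CDKN1A. RAB44 passed the filter on low counts only through the treated libraries, where it is high, and with at least 10 counts asked of every library it was not tested, so its adjusted p carries little weight. Whether reads from beyond the end of CDKN1A add to RAB44 was not tested. At CCND1, the upstream neighbour MYEOV rose from 158.1 ± 6.19 to 184.7 ± 1.21 CPM (0.22, edgeR adjusted p = 1.60e-06), and FGF19 held 0 to 4 counts per library. At CCND2, TIGAR, a regulator of glycolysis that starts 2413 bases downstream on the same strand, rose (0.21, edgeR adjusted p = 0.00409) while CCND2 fell, and PARP11, on the other side, fell (-0.15, edgeR adjusted p = 0.00506). CCND2-AS1, on the opposite strand, did not pass (-0.36, edgeR adjusted p = 0.195).

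Over the 6 libraries, the genes whose log2 CPM followed CDKN1A most closely among 14877 genes were ZNF365 (Pearson's r = 0.9992), TSPAN5 (0.9990) and TUBA4A (0.9987). TUBA4A, an alpha-tubulin gene, rose from 69.7 ± 0.620 to 103.0 ± 2.21 CPM (n = 3 each, log2 fold change 0.56), ZNF365 from 8.81 ± 0.173 to 12.7 ± 0.327 CPM (0.53), and TSPAN5 from 52.96 ± 0.281 to 63.6 ± 0.514 CPM (0.26). The closest to CCND1 were CNTNAP3B (0.9932), LASP1 (0.9930) and LRRC42 (0.9925). With 3 libraries per group, such values mainly reflect a shared difference between the groups and the shared library, and they are given as a description.

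The libraries held 60286931 to 80605145 counts, and their trimmed-mean factors lay between 0.9953 and 1.007. Of all 4951 called genes, 54.5% were higher in PARGi, and with upper-quartile scaling 40.5% of 4947 were, and with the GC and length offset 64.3% of 5739, while each tested member kept its direction under all 3. The osteoblast and mesenchymal markers were abundant for COL1A1, SPARC and VIM (1571 to 4659 CPM) and lower for RUNX2, COL1A2 and ALPL (4.44 to 84.5 CPM). Of these 6, RUNX2 (log2 fold change -0.27), COL1A2 (-0.80) and SPARC (-0.083) fell in PARGi, ALPL rose (0.23), and COL1A1 (0.012) and VIM (-0.062) did not pass the edgeR threshold. Their summed level was 8318 to 8904 CPM in DMSO and 8427 to 8469 CPM in PARGi. The 5 markers of epithelial, blood and endothelial cells lay between 0.0788 and 3.78 CPM. Of these, CDH1 rose from 0.718 to 1.14 CPM (0.67, edgeR adjusted p = 0.0104) and the other 4 did not pass, with a summed level of 5.83 to 6.24 CPM in DMSO and 5.48 to 6.12 CPM in PARGi. The part of these markers in the results was not tested.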

How the data were processed

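The authors deposited raw whole-number read counts per versioned Ensembl gene, 1 file per library, without header, and these counts are not normalised. Per the submitters' processing notes, hg38, cutadapt 1.18, STAR 2.7.3a, SAMtools 1.9, DESeq2 and deepTools were used, and their roles are not given in the sources used here, nor is the annotation. Per the labels' protocols, the kit was a stranded one. Genes nested in exons of a highly counted antisense host (235, of which 213 were above 0) had a median of 21 counts against 40982 for the hosts. Counting without regard to strand can also leave nested genes low, where reads that overlap both genes are set aside. The check therefore cannot decide whether the counts are strand-specific. No row lacked a gene (0 rows).

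A gene name table gave symbols (60463 of 60708 identifiers), and positions and exonic lengths from GENCODE 29. The test was edgeR 4.0.16 in R 4.3.3 (filterByExpr, TMM, glmQLFit, two-sided glmQLFTest, treatment alone, all 6 libraries), adjusted by Benjamini-Hochberg over 20409 genes with a threshold of 0.05. The code was tested on simulated data. Ratios were compared with exact permutation tests. Alternatives were DESeq2 1.42.0, limma-voom (limma 3.58.1), other scalings, filters and dispersions, a replicate block, a GC and length offset (loess span 0.3), and each library left out. The members and lists were chosen with earlier results of these data known. Named by rule were the members, up to 5 called genes per list with the smallest p, MDM2, RB1, CDK2, CDK4 and CDK6, overlapping genes, the nearest protein-coding neighbours of CDKN1A, CDKN2A/CDKN2B, CCND1 and CCND2 alone, and the 3 genes most like CDKN1A and CCND1 (mean of at least 1 CPM). A further gene of the rule is not reported here.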

Additional observations from a re-analysis of the deposited data

How the results depend on the processing

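Over the 17 alternatives, 8 members passed in 16 and 7 passed in the other, without PARGi replicate 3, where CDKN2C was lost (-0.079 to -0.15 over all alternatives, adjusted p up to 0.0767). No tested member changed direction, and CDKN2B passed in none (adjusted p from 0.233 to 0.746). The log2 fold change of CDKN1A ran from 0.72 to 0.76. The list of cyclin-CDK and pocket protein genes had 11 calls with the GC and length offset in place of 7 (28.1% of all genes in place of 24.3%), and the cause was not tested. The turnover list had 6 to 8 calls with a library left out in place of 10, where 17.5% to 23.6% of all genes passed. With a library left out, LTO1 ran from -0.068 to 0.0056 (without DMSO replicate 3), past the threshold in no case, and the cause was not tested. Among the other named genes, RB1 passed in 4 alternatives, LASP1 was lost in 6 and LRRC42 in 4.

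The labels name no day or culture shared by same-numbered libraries, so whether the replicate numbers pair them is not known. Same-numbered libraries had correlations of deviations from -0.0078 to 0.016, and not every library correlated best with its own number. These values cannot exclude pairing, as the deviations also hold counting error. With the replicate block, 8 members passed, 4553 of all genes passed in place of 4951, and the 3 ratios kept their differences (1.11 for CDKN1A to CDKN1B), where 0.25 is the smallest p that 3 pairs can give. CDKN2A (0 to 4 counts per library) and CDKN2B-AS1 (0 to 16) held too few counts for a test.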
